A study of Saccharomyces cerevisiae with 96 samples.

Results

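The genes described here are 10 budding yeast genes of superoxide and peroxide defence, out of 6598 mRNA entries in the deposited count tables. They were chosen by their systematic names: the superoxide dismutases SOD1 (YJR104C) and SOD2 (YHR008C), the catalase CTT1 (YGR088W), cytochrome c peroxidase CCP1 (YKR066C), the peroxiredoxins TSA1 (YML028W), AHP1 (YLR109W) and PRX1 (YBL064C), the thioredoxins TRX1 (YLR043C) and TRX2 (YGR209C), and the glutaredoxin GRX1 (YCL035C). All 10 were found in every table used, and the rule uses names alone. The genes were, however, chosen with earlier results of these data known. The study asked which yeast RNAs carry nicotinamide adenine dinucleotide (NAD) in place of the usual cap at the 5′ end, and what happens when enzymes that remove this NAD are deleted. It used 2 assays. In NAD captureSeq the enzyme adenosine diphosphate-ribosylcyclase (ADPRC) tags the NAD so that the RNA can be biotinylated and pulled down, and a library without the enzyme (−ADPRC) measures the background of the fully treated one (+ADPRC). Transcriptome libraries of the same strains give the level of each transcript.

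All strains are derivatives of BY4742, a haploid MATα laboratory strain with his3Δ1, leu2Δ0, lys2Δ0 and ura3Δ0, which WT shares with the mutants. The mutants carry the deletions npy1::kanMX4, dxo1::natNT2 and rai1::hphNT1 in all 7 combinations, and so every mutant also carries 1 to 3 drug resistance markers that WT lacks. Npy1 is a Nudix hydrolase that splits the NAD cap, whereas Dxo1 and Rai1 remove the whole NAD from the RNA. Cultures were grown in YPD, a rich glucose medium, at 30 degrees with shaking and were harvested in log phase. Each group had 3 biological replicates.

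Respiring cells leak electrons to oxygen and so make superoxide. Superoxide dismutases turn it into hydrogen peroxide, Sod1 with copper and zinc mainly in the cytosol and Sod2 with manganese in the mitochondrial matrix. Hydrogen peroxide is then removed by catalase, by cytochrome c peroxidase of the mitochondrial intermembrane space and by peroxiredoxins, whose oxidized cysteines are reset by thioredoxins and glutaredoxins at the cost of NADPH. In yeast several of these genes belong to the general stress response, and some rise when glucose runs out and respiration begins.

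The 5′ counts cover a window around each translation start, of 185 bases for each of the 10 genes in the S288C R64 annotation. Equal length alone does not make levels comparable between genes, since how much of a window is transcribed and covered was not measured. The order of the genes by level is therefore a description. No other annotated gene overlapped these windows on either strand, and stretches of 18 bases found elsewhere in that genome numbered 3 of 168 for CTT1, 1 of 168 for TRX1 and 0 for the other 8. Transcriptome 5′ totals ranged from 4926021 to 17733417 reads, with 1193668 to 2393366 on mRNAs. The mRNA share was 9.97% to 11% in the 3 WT libraries against 21.3% to 29.1% in the 21 mutant libraries. Capture libraries held 470978 to 29300164 reads without ADPRC, of which only 490 to 22456 fell on mRNAs, and 616837 to 19424126 with ADPRC, of which 19298 to 854857 fell on mRNAs. Groups were taken from the sample titles, with which the descriptions of the npy1Δ transcriptome samples conflict in part. Reads of NPY1 and RAI1 matched the titles. In the run of WT, NPY1 had 32 to 51 reads in WT and 0 to 1 in npy1Δ. In the other run it had 124 to 195 reads where it was present and 3 to 13 where it was deleted. RAI1 had 7 to 41 reads where present and 0 to 1 where deleted. DXO1 had 7 to 22 reads in mutants that keep it and 0 to 2 where deleted, but only 0, 0 and 5 in WT, so it does not check WT. WT and npy1Δ transcriptomes came from one sequencing run and the other 6 strains from another. Run and strain therefore cannot be told apart in 6 of the 7 comparisons with WT, while npy1Δ against WT and all comparisons between the other mutants lie within a run. The capture libraries came from 4 runs of 2 strains each, WT with npy1Δ, dxo1Δ with dxo1Δ npy1Δ, rai1Δ with rai1Δ npy1Δ, and dxo1Δ rai1Δ with the triple mutant. A capture value of the 6 mutants outside the run of WT therefore differs from that of WT in run as well as strain, and these cannot be told apart.

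In WT, SOD1 had the highest transcript level of the 10, followed by TSA1, SOD2 and TRX2, and CCP1 the lowest. Levels are given as reads per 1000000 mRNA 5′ reads (RPM), as mean ± SD of n = 3. SOD1 stood at 2721 ± 106, TSA1 at 1952 ± 210, SOD2 at 1859 ± 63.2 and TRX2 at 1630 ± 42.5. A gap separated these from AHP1 at 514 ± 41.1, GRX1 at 454 ± 76.3, PRX1 at 369 ± 44.5, CTT1 at 360 ± 81, TRX1 at 174 ± 13.4 and CCP1 at 149 ± 25.7. The libraries of TSA1 and SOD2 overlapped in this order, as did those of each neighbouring pair from AHP1 to CTT1, and those of TRX1 and CCP1. In the triple mutant dxo1Δ rai1Δ npy1Δ the order was led by TSA1 at 3791 ± 339, then SOD1 at 1535 ± 107, AHP1 at 1466 ± 200.0 and TRX2 at 1289 ± 51.9. There SOD2 was at 112 ± 16.4 and CTT1 last at 13.2 ± 2.96. Together the 10 genes took 1.018% of the mRNA 5′ reads in WT, 0.644% in npy1Δ and 0.726% to 0.914% in the other mutants.

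**Figure D1:**
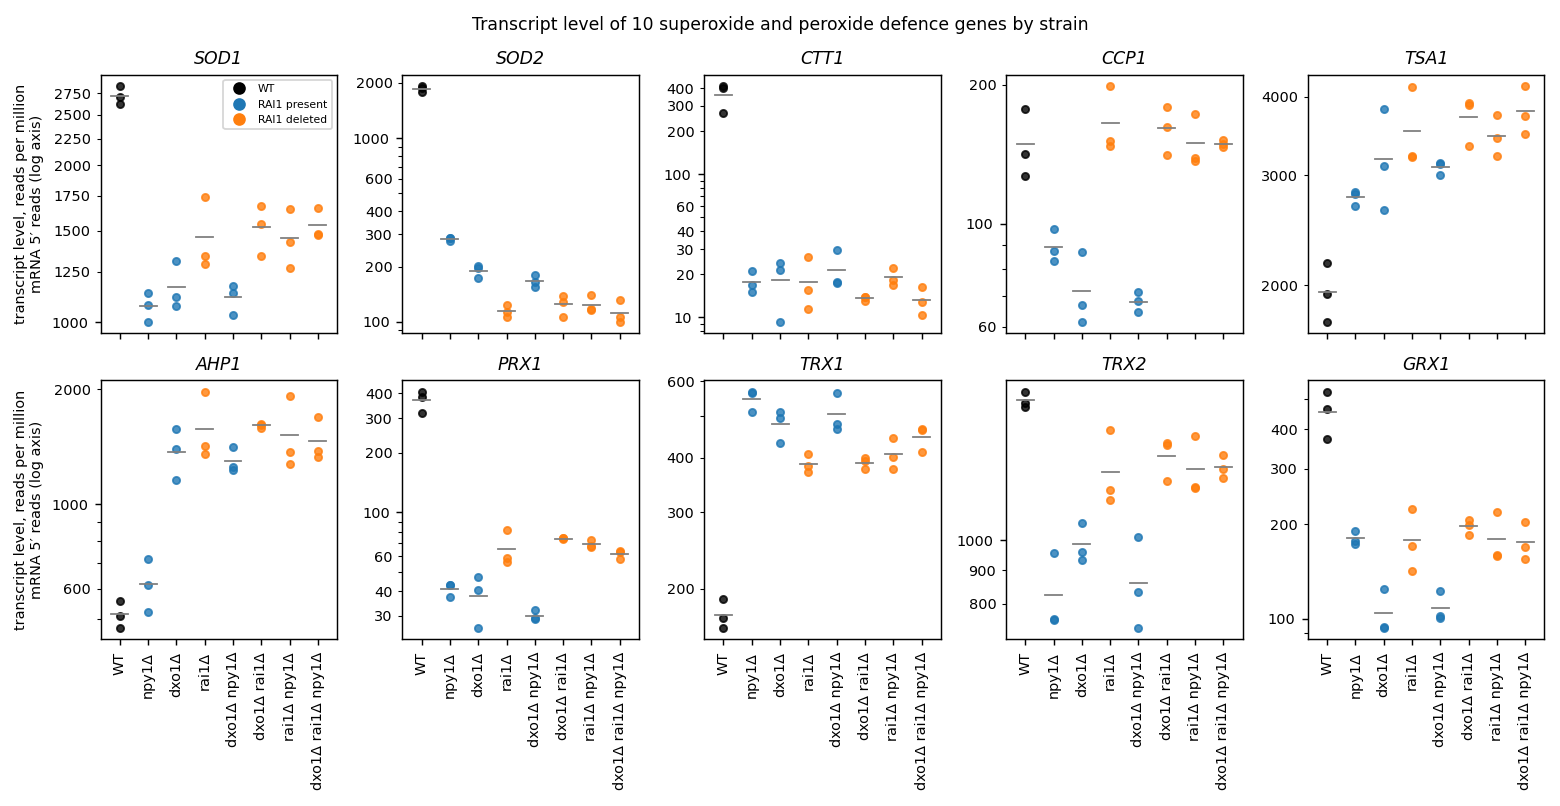
Transcript level of each gene (log axis, RPM of mRNA 5′ reads) in 8 strains. Each point is 1 library and each grey line the mean of 3, with WT in black, mutants that keep RAI1 in blue and mutants without it in orange. SOD1, SOD2, CTT1, PRX1, TRX2 and GRX1 sit below WT in all 7 mutants and TSA1 and TRX1 above it, while CCP1 separates the mutants by RAI1.

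Against WT, 6 of the 10 genes were lower in every mutant, by 1.58-fold to 34.5-fold. The share of all RNAs called lower in every mutant was not counted, and per mutant it was 32.9% to 34.8%. SOD1, SOD2, CTT1, PRX1, TRX2 and GRX1 fell in all 7 strains, TRX1 rose in all 7, AHP1 rose in 6, TSA1 rose in 3 and CCP1 fell in 3. These are calls of the edgeR quasi-likelihood test with an adjusted p under 0.05 and a log2 fold change beyond ±0.5, over all RNAs with a normalized base mean above 1. Fold changes are relative to the bulk of RNAs (TMM scaling). Scaling by total counts instead shifted the median of all RNAs by 1.47 to 1.77 on the log2 scale, moved the share of higher among all calls from between 51.2% and 53.3% to between 85.9% and 86.9%, and turned the sign for SOD1 in 5 strains, CCP1 and TRX2 in 7, GRX1 in 3 and AHP1 in 1. It also ended the calls of SOD1 in npy1Δ (−0.18) and dxo1Δ npy1Δ (−0.0084) and of GRX1 in npy1Δ (−0.16) and rai1Δ npy1Δ (−0.02). Relative to the median RNA no value of the 70 moved by more than 0.0276. The ratio of mean RPM levels is higher than the fitted fold change by 0.303 to 0.419 on the log2 scale, since the total it uses differs.

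In npy1Δ 1 of the 10 genes was called higher and 7 lower, where 34.5% of all 6927 RNAs tested were called higher and 32.9% lower. In dxo1Δ it was 2 higher and 7 lower, against 36.7% and 34.2% of all RNAs. In rai1Δ it was 3 and 6, against 38.7% and 34.2%. In dxo1Δ npy1Δ the counts were 2 and 7, against 36.9% and 34.8%. In dxo1Δ rai1Δ they were 3 and 6, against 38.4% and 33.6%. In rai1Δ npy1Δ they were 2 and 6, against 37.9% and 34.6%. In the triple mutant they were 3 and 6, against 39.0% and 34.8%. The 7 comparisons share the WT libraries. Where libraries of groups are said below not to overlap, the share of all RNAs without overlap was not counted. The median log2 fold change of the 10 genes lay between −1.62 and −0.90, and that of all RNAs between 0.03 and 0.14.

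Catalase T, the product of CTT1 and a classical target of the stress response, had the largest fall of the 10. In WT its level was 267, 412 and 402 in replicates 1 to 3, from 361, 632 and 711 reads. In npy1Δ it was 15.0, 21.1 and 16.7, from 29, 36 and 26 reads. Each WT library was far above every mutant library, and the other 18 mutant libraries lay between 9.34 and 29.5. The fall was 25.2-fold in npy1Δ (log2 −4.66, SE 0.20, edgeR adjusted p = 4.59e-13) and 22.0-fold to 34.5-fold over the 7 strains. Coding-sequence counts, which hold more reads of this gene, gave a larger change. There the WT level was 2832, 2880 and 2529 RPM and that of npy1Δ 25.4, 24.6 and 12.9. The log2 fold change by coding sequence was −6.73 in npy1Δ and down to −8.03 in dxo1Δ npy1Δ, 2.07 to 3.57 below that of the 5′ window.

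SOD2, the mitochondrial superoxide dismutase, also fell strongly. Its WT level was 1792, 1917 and 1867, and the npy1Δ level 286, 287 and 276. The replicates agreed closely and the groups did not overlap. In the other 6 strains SOD2 was lower still, from 100.2 to 200.1 over 18 libraries. The fall was 8.13-fold in npy1Δ (log2 −3.02, SE 0.15, edgeR adjusted p = 3.08e-12) and reached 20.6-fold in the triple mutant (log2 −4.37, SE 0.14, adjusted p = 1.38e-20 by edgeR).

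The cytosolic enzyme SOD1 fell less than SOD2. Its WT level was 2626, 2702 and 2835 and that of npy1Δ 1138, 1082 and 1004. All mutant libraries lay below all WT libraries, with 1032 to 1737 in the other 6 strains. The fall ranged from 2.22-fold in the triple mutant to 3.25-fold in dxo1Δ npy1Δ, and was log2 −1.65 (SE 0.15, edgeR adjusted p = 1.34e-08) in npy1Δ. By total counts the sign of SOD1 turned in dxo1Δ, rai1Δ, dxo1Δ rai1Δ, rai1Δ npy1Δ and the triple mutant, and in npy1Δ and dxo1Δ npy1Δ the call ended.

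CCP1, which passes electrons from cytochrome c to hydrogen peroxide, split the mutants by RAI1. It was 127, 142 and 177 in WT, 97.4, 83.3 and 87.5 in npy1Δ, 61.5, 66.9 and 86.8 in dxo1Δ and 71.3, 68.2 and 64.5 in dxo1Δ npy1Δ. These 3 strains were below WT without overlap. In the 4 strains without RAI1 the level was 137 to 198 and overlapped WT. The test called CCP1 lower in npy1Δ (log2 −1.04, SE 0.15, edgeR adjusted p = 7.83e-06), dxo1Δ (−1.46) and dxo1Δ npy1Δ (−1.54, 2.92-fold). In strains without RAI1 the fitted log2 values were −0.17 to −0.40 and not past the limit, although coding-sequence counts gave −0.47 to −0.65 there and were past it in 3 of these 4. In rai1Δ npy1Δ the 5′ value also passed without its replicate 1 (−0.52). All 7 signs turned under total counts.

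The peroxiredoxins moved in different directions. PRX1, the mitochondrial peroxiredoxin, was 319, 405 and 383 in WT and 37.3, 42.8 and 43.1 in npy1Δ. The mutants stood well apart from WT, at 26.2 to 46.9 in dxo1Δ and dxo1Δ npy1Δ and 56.1 to 81.2 in strains without RAI1. The fall was 11.1-fold in npy1Δ (log2 −3.48, SE 0.15, edgeR adjusted p = 6.07e-13) and from 6.54-fold in dxo1Δ rai1Δ to 16.3-fold in dxo1Δ npy1Δ. Changes by coding sequence ran from −3.25 to −4.37.

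TSA1, the main cytosolic peroxiredoxin, had the highest level of the 10 in every mutant. In WT it was 1751, 1936 and 2169, in npy1Δ 2802, 2673 and 2817, and in the other 6 strains 2637 to 4157. Every mutant library was above every WT library on this scale. Relative to the bulk of RNAs the difference was small, with log2 values of 0.20 in npy1Δ (SE 0.15, edgeR adjusted p = 0.246) to 0.64 in the triple mutant (SE 0.13, adjusted p = 7.28e-05 by edgeR). It was called in rai1Δ (0.53), dxo1Δ rai1Δ (0.54) and the triple mutant. The calls in rai1Δ and dxo1Δ rai1Δ sat at the limit. They ended without WT replicate 1 (0.46 and 0.49), in rai1Δ also without WT replicate 2 (0.49) or rai1Δ replicate 1 (0.39), and in dxo1Δ rai1Δ without its replicate 2 or 3 (0.49 each). Both ended with RLE scaling (0.49 and 0.48) and with DESeq2 (0.49 and 0.48). Under total counts TSA1 was called also in npy1Δ (1.67), dxo1Δ (1.94), dxo1Δ npy1Δ (1.94) and rai1Δ npy1Δ (2.14). With coding-sequence counts TSA1 was called in none of the 7, with values of −0.05 to 0.33.

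AHP1, an alkyl hydroperoxide reductase, rose in all mutants but npy1Δ. This split of the mutants is also that of the sequencing runs, and strain and run cannot be told apart. Its WT level was 475, 557 and 510 and its npy1Δ level 615, 523 and 717, so these groups overlapped. In the other 6 strains AHP1 was at 1156 to 1965, above every WT library. The log2 fold change was −0.04 in npy1Δ (SE 0.15, edgeR adjusted p = 0.816) and 0.92 to 1.30 in the others, or 1.90-fold to 2.46-fold. By coding sequence the values of the other 6 were 0.40 to 0.66, and only dxo1Δ and dxo1Δ rai1Δ were past the limit. Under total counts the sign in npy1Δ turned.

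The thioredoxins, small proteins that reduce peroxiredoxins, went opposite ways. TRX1 was 163, 189 and 171 in WT and 566, 510 and 565 in npy1Δ, with 371 to 565 in the other strains, so no mutant library came near WT. It rose 2.54-fold in npy1Δ (log2 1.34, SE 0.13, edgeR adjusted p = 5.40e-08) and 1.71-fold to 2.17-fold in the other 6. TRX2 was 1596, 1617 and 1678 in WT and 757, 759 and 958 in npy1Δ, with 737 to 1471 in the other strains, all below WT. It fell 2.45-fold in npy1Δ (log2 −1.29, SE 0.15, edgeR adjusted p = 4.25e-07) and 1.58-fold in the triple mutant, and its sign turned in all 7 strains under total counts.

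GRX1, a glutaredoxin that uses glutathione, was 373, 464 and 525 in WT and 177, 174 and 190 in npy1Δ. Without overlap with WT, it was 93.9 to 124 in dxo1Δ and dxo1Δ npy1Δ and 142 to 223 in the strains without RAI1. The fall was 3.12-fold in npy1Δ (log2 −1.64, SE 0.14, edgeR adjusted p = 7.70e-09), 5.76-fold in dxo1Δ and 3.02-fold to 3.33-fold in the strains without RAI1, with a turned sign under total counts in rai1Δ, dxo1Δ rai1Δ and the triple mutant and no call in npy1Δ and rai1Δ npy1Δ.

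**Figure D2:**
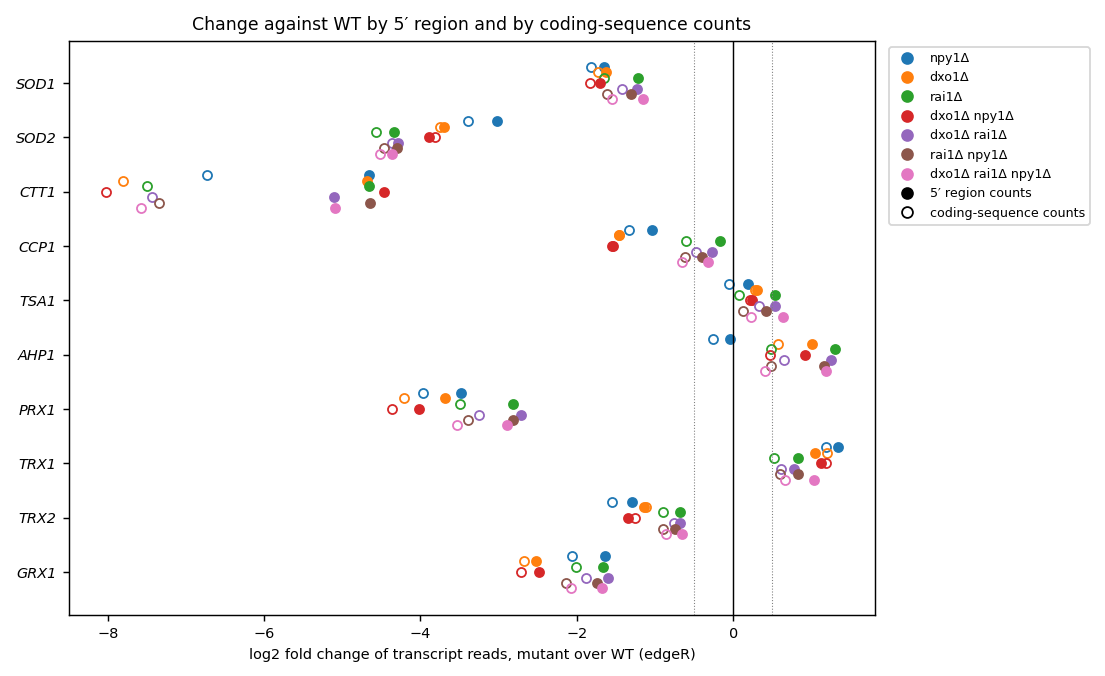
Log2 fold change of transcript reads against WT (edgeR) for each gene in 7 mutants, with filled points for 5′ region counts and open points for coding-sequence counts. Dotted lines mark the limit of 0.5. CTT1 lies between −4.46 and −5.11 by its 5′ region and between −6.73 and −8.03 by its coding sequence, and TRX1 is the only gene right of the limit in all 7 by both counts.

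A list of 24 other redox genes, also chosen with earlier results of these data known, was given the same test. Depending on the strain, 4 to 7 of them were called higher and 10 to 12 lower, with GRX3 not tested in npy1Δ and 23 tested also in rai1Δ npy1Δ. TSA2, a stress-induced sister of TSA1, fell in all 7 strains, by log2 −5.08 to −6.02. YAP1, the transcription factor that answers peroxide, fell in all 7 by log2 −1.04 to −1.32. TRR1, the reductase that recharges the cytosolic thioredoxins, rose in all 7, by log2 1.96 to 2.35, and so did CCS1, the copper chaperone of Sod1, by 0.79 to 1.53. SRX1, the sulfiredoxin, fell in 3 strains (−0.45 to −1.19 over the 7), the peroxisomal catalase gene CTA1 rose in 1 (0.27 to 0.73), and GLR1, glutathione reductase, was called in none (−0.29 to 0.23).

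Genes that glucose represses and genes of the general stress response moved with these changes. The lists of both were chosen with earlier results of these data known. All 9 glucose-repressed genes listed, such as PCK1 and ADH2, were called lower in each of the 7 mutants. So were all 8 stress genes listed, such as HSP12 and HSP26, where 32.9% to 34.8% of all RNAs were called lower per mutant. The median log2 fold changes of the lists were −8.28 to −6.80 and −5.64 to −3.44, in this order. The part of such a difference between the WT cultures and all others in the values of the 10 genes was not tested, and in these cultures fewer cells of a state and less RNA per cell cannot be told apart.

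The comparisons of mutants that differ by 1 deletion lie within a run and leave WT out. Deleting NPY1 or DXO1 in these strains changed none of the 10 genes by the test. In npy1Δ against WT, also within a run, 1 was called higher and 7 lower. DXO1 was compared only in strains without RAI1. Deleting RAI1 raised CCP1, PRX1 and GRX1 and lowered SOD2 in both strains where it could be compared.

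For NPY1, the edgeR test called 0 of the 10 in dxo1Δ (0.0289% of all RNAs), 0 in rai1Δ (0.0574%) and 0 in dxo1Δ rai1Δ (0.804%). For DXO1 it called 0 in rai1Δ (0.69%) and 0 in rai1Δ npy1Δ (0.115%). At an unadjusted p below 0.05 the counts were 0, 0, 1, 0 and 0, the single gene being TRX1, and DESeq2 called 0 in each. The fitted log2 values of the 10 genes lay between −0.32 and 0.27 for NPY1. For DXO1 they lay between −0.49 and 0.18, the lowest being CTT1 with 20 to 35 reads per library. Scaling by total counts moved the share of higher among the few calls over all RNAs from 50% to 33.3% for NPY1 in rai1Δ, from 53.6% to 85.2% for NPY1 in dxo1Δ rai1Δ and from 41.7% to 6.04% for DXO1 in rai1Δ.

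For RAI1, the test called 4 of the 10 in dxo1Δ, where 13.1% of all RNAs were called, and 6 of the 10 in dxo1Δ npy1Δ, where 22.3% were. CCP1 had the largest change. It was 61.5, 66.9 and 86.8 in dxo1Δ and 141, 179 and 162 in dxo1Δ rai1Δ. In dxo1Δ npy1Δ it was 71.3, 68.2 and 64.5, and in the triple mutant 147, 149 and 152. No library of the strains without RAI1 was as low as any with it, and the rise was 2.23-fold (log2 1.16, SE 0.16, edgeR adjusted p = 5.05e-06) and 2.28-fold (1.19, SE 0.13, adjusted p = 3.89e-07).

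PRX1 rose from 40.5, 26.2 and 46.9 in dxo1Δ to 73.9, 74.0 and 73.6 in dxo1Δ rai1Δ, which is log2 0.96 (SE 0.19, edgeR adjusted p = 5.18e-04). In dxo1Δ npy1Δ it was 32.1, 28.8 and 29.3, and in the triple mutant 63.1, 58.5 and 64.2, which is 2.14-fold more (SE 0.17 on the log2 scale, edgeR adjusted p = 2.46e-05). In both pairs the groups were apart. GRX1 went from 94.2, 93.9 and 124 to 199, 206 and 185 in the first pair (log2 0.91, SE 0.15, edgeR adjusted p = 5.92e-05) and from 101, 102 and 122 to 155, 169 and 204 in the second (0.77, SE 0.14, adjusted p = 1.85e-04). Here too no libraries overlapped.

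SOD2 moved the other way. It was 200.1, 173 and 197 in dxo1Δ against 107, 127 and 139 in dxo1Δ rai1Δ (log2 −0.61, SE 0.15, edgeR adjusted p = 0.00439), and 155, 165 and 181 in dxo1Δ npy1Δ against 100.2, 106 and 131 in the triple mutant (−0.50, SE 0.13, adjusted p = 0.00631). The groups did not overlap, but both values sit near the limit. Without dxo1Δ rai1Δ replicate 1 the first was −0.49, under total counts the second was −0.48, and without triple mutant replicates 1 or 2 or dxo1Δ npy1Δ replicate 3 the second was −0.41, −0.47 and −0.45, all short of it. SOD1 (log2 0.52, SE 0.11, edgeR adjusted p = 0.00117) and TRX2 (0.64, SE 0.12, adjusted p = 2.63e-04) were called in dxo1Δ npy1Δ alone, with 0.37 and 0.43 in dxo1Δ. The SOD1 call ended without triple mutant replicate 3 (0.44) or dxo1Δ npy1Δ replicate 2 (0.46), with RLE scaling or DESeq2 (0.498 each) and with coding-sequence counts (0.34), and the TRX2 call with coding-sequence counts (0.45). Whether the RAI1 effect differs between the backgrounds was not tested. TSA1, AHP1, TRX1 and CTT1 were not called in either by their 5′ counts. By coding sequence TRX1 was called lower in dxo1Δ (−0.57) and CTT1 higher in dxo1Δ npy1Δ (0.52). TRX2 passed in dxo1Δ without its replicate 3 (0.51), and CTT1 in dxo1Δ npy1Δ without its replicate 1 (−0.81) or 3 (−0.78).

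Of the 24 other redox genes the test called 6 higher and 1 lower for RAI1 in dxo1Δ and 6 and 2 in dxo1Δ npy1Δ. GRX2, GRX5, GRX7, CCS1 and GPX2 were higher and SKN7 lower in both.

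**Figure D3:**
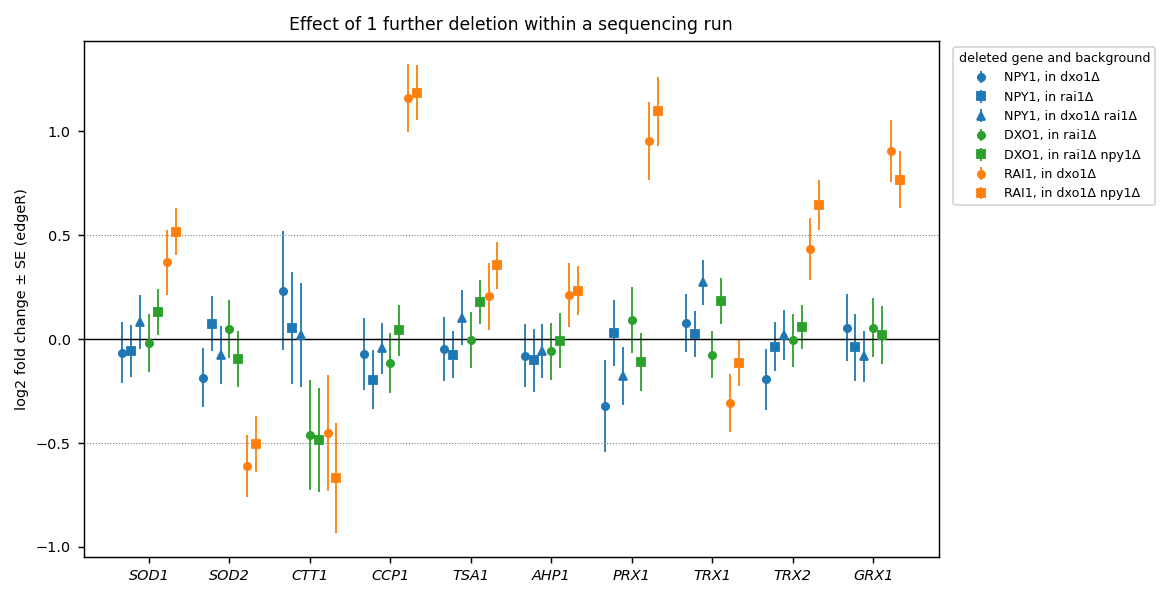
Log2 fold change ± SE (edgeR) of each gene for the deletion of NPY1 (blue), DXO1 (green) or RAI1 (orange) in the background named in the legend, within 1 sequencing run. Dotted lines mark the limit of 0.5. The orange points of CCP1 stand at 1.16 and 1.19 and those of SOD2 at −0.61 and −0.50, while the blue and green points lie between −0.49 and 0.27.

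In NAD captureSeq, 9 of the 10 genes were enriched over the −ADPRC control in each strain. SOD1, CCP1, TSA1, AHP1, PRX1, TRX2 and GRX1 were enriched in all 8 strains, SOD2 in all but npy1Δ and TRX1 in all but WT, and CTT1 in WT and npy1Δ, a split that depended on the scaling. The share of all RNAs enriched in all 8 strains was not counted. A gene was called enriched at a log2 fold change above 0.5 and an adjusted p below 0.05 by edgeR. By this rule 36.1% of all RNAs tested were enriched in WT, 44.7% in npy1Δ, 87.3% in dxo1Δ, 56.0% in rai1Δ, 57.2% in dxo1Δ npy1Δ, 68.0% in dxo1Δ rai1Δ, 83.1% in rai1Δ npy1Δ and 53.1% in the triple mutant. In dxo1Δ, dxo1Δ npy1Δ and rai1Δ npy1Δ only 9 of the 10 genes were tested. The base mean is taken over both arms, so RNAs with few or no control reads passed through their +ADPRC reads. For these the filter favours a call of enriched, as for SOD2 in rai1Δ (base mean 1.89, 27 against 0 reads) and rai1Δ npy1Δ (1.59, 12 against 0). Other scalings shifted the median enrichment of all RNAs by −0.02 to 2.06 on the log2 scale and raised the enriched share of calls in npy1Δ from 85.8% to 98.6%. The 10 genes together held 8 to 157 control reads and 2179 to 16325 captured reads per strain. Beyond 3 control reads in a group the fitted fold change is given. With 1 to 3 control reads the ratio has its 95% interval, with none it is a lower bound at a floor of 3 reads over the group, and both cover counting error only, since PCR copies cannot be told from molecules.

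SOD1 was the most captured of the 10 in every strain. In WT it had 1396, 242 and 120 reads with ADPRC and 11, 5 and 4 without. In npy1Δ it had 439, 233 and 420 against 5, 9 and 10, and in dxo1Δ 725, 820 and 719 against 0, 0 and 0. Every captured library was above every control after scaling, in all 8 strains. The share of all RNAs for which this holds was not counted, and low control counts favour it. The enrichment was log2 5.42 in WT (SE 0.49, edgeR adjusted p = 6.71e-26), 4.58 in npy1Δ (SE 0.42) and at least 413-fold in dxo1Δ.

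CTT1 had most of its captured reads in WT. Its reads were 284, 105 and 25 with ADPRC and 1, 3 and 0 without in WT. In npy1Δ they were 15, 15 and 18 against 1, 1 and 3. In the other 6 strains a captured library held 0 to 16 CTT1 reads. The enrichment was log2 5.83 in WT (SE 0.78, edgeR adjusted p = 3.74e-12), and 2.37 in npy1Δ (SE 0.94, adjusted p = 0.0468), a call that ended when any library but −ADPRC replicate 3 was left out (1.75 to 2.27) or when no filter was applied (edgeR adjusted p = 0.0583). In rai1Δ, dxo1Δ rai1Δ and the triple mutant the ratio to the control was 1.92, 4.00 and 2.49, with 95% intervals of 0.267 to 84.3, 0.643 to 165 and 0.633 to 21.5. In dxo1Δ, dxo1Δ npy1Δ and rai1Δ npy1Δ, with 6, 8 and 5 captured reads in all, CTT1 was below the base mean limit and not tested. The edgeR test with TMM scaling called CTT1 in none of the 3 strains tested here, but other settings did: RLE scaling in rai1Δ (log2 2.93), dxo1Δ rai1Δ (2.79) and the triple mutant (2.46), total counts in dxo1Δ rai1Δ (3.17) and the triple mutant (3.22), and DESeq2 in the triple mutant (2.60). The call was also made in dxo1Δ rai1Δ without −ADPRC replicate 1 (5.31), and in the triple mutant without +ADPRC replicate 2 (2.02) or −ADPRC replicate 3 (5.78). The CTT1 transcript was also at a low level in these strains.

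CCP1 had hardly any control read, 0 in 7 strains and 3 in npy1Δ. It was enriched at least 12.8-fold in WT, where it had 59 captured reads in all, and from at least 5.75-fold in dxo1Δ npy1Δ (92 reads) to at least 16.9-fold in the triple mutant (305 reads). In npy1Δ the ratio was 31.3 with a 95% interval of 10.6 to 154.

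PRX1 had 351 captured and 11 control reads in WT (log2 4.07, SE 0.71, edgeR adjusted p = 1.80e-07) and 105 against 0 in npy1Δ, at least 18.3-fold. TSA1 had 120 captured reads in WT against 5 (log2 3.76, SE 1.02, edgeR adjusted p = 0.00159), and 247 to 2606 in the mutants against 2 to 27. AHP1, with 204 against 10 in WT (log2 3.31, SE 0.83, edgeR adjusted p = 5.35e-04), reached log2 7.77 in dxo1Δ (SE 0.50). All captured libraries of the peroxiredoxins lay above all their controls in each strain, a trait whose share over all RNAs was not counted. The WT call of AHP1 rests on +ADPRC replicate 1, the deepest WT library, without which it was log2 2.49 with an edgeR adjusted p of 0.073.

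TRX1 and TRX2 had the lowest fitted enrichment of the 10 in WT. TRX1 had 12, 0 and 2 reads with ADPRC against 0, 4 and 0 without, so the groups overlapped (log2 1.08, SE 1.78, edgeR adjusted p = 0.610). In the mutants it had 69 to 610 captured and 0 to 8 control reads. TRX2 had 59, 29 and 2 reads against 0, 7 and 0 in WT, again with overlap, and was called there at log2 3.00 (SE 1.03, edgeR adjusted p = 0.0141). That call ended without +ADPRC replicate 1 (2.85) or 2 (2.75) or −ADPRC replicate 1 (2.40) or 3 (2.65). In npy1Δ TRX2 had 239 against 34 (log2 1.97, SE 0.65, edgeR adjusted p = 0.0212), and its call ended without any one +ADPRC library (1.25 to 1.87). In the other 6 strains it had 176 to 1636 captured against 0 to 3 control reads, for example a ratio of 227 in dxo1Δ with a 95% interval of 40.6 to 8995.

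SOD2 had 100 captured against 5 control reads in WT (log2 3.57, SE 1.04, edgeR adjusted p = 0.00321) and 106 against 13 in npy1Δ (1.93, SE 0.91, adjusted p = 0.0866), where it passed without −ADPRC replicate 3 (3.44) or under total counts (3.10). In the other strains it had 12 to 94 reads against 0 to 2. In rai1Δ the 27 captured reads give at least 1.92-fold, and in rai1Δ npy1Δ 12 reads, 0 of them in replicate 3, give at least 2.86-fold. GRX1 had 170 against 6 in WT (log2 3.61, SE 0.92, edgeR adjusted p = 7.36e-04) and 183 against 21 in npy1Δ (2.14, SE 0.61, adjusted p = 0.0101). The GRX1 call ended in WT without +ADPRC replicate 1 (2.70) and in npy1Δ without any one +ADPRC library (1.32 to 1.76). In rai1Δ the calls of SOD2 (5.19), PRX1 (3.29) and GRX1 (3.05) ended without +ADPRC replicate 2, and SOD2 (5.50) also without −ADPRC replicate 2. SOD2 was also lost in rai1Δ npy1Δ without +ADPRC replicate 2 (4.72) or with DESeq2 (4.48) and in the triple mutant without −ADPRC replicate 1 (2.07) or 2 (1.90), and GRX1 in dxo1Δ npy1Δ without +ADPRC replicate 2 (2.33) or 3 (2.83) or −ADPRC replicate 2 (2.38).

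**Figure D4:**
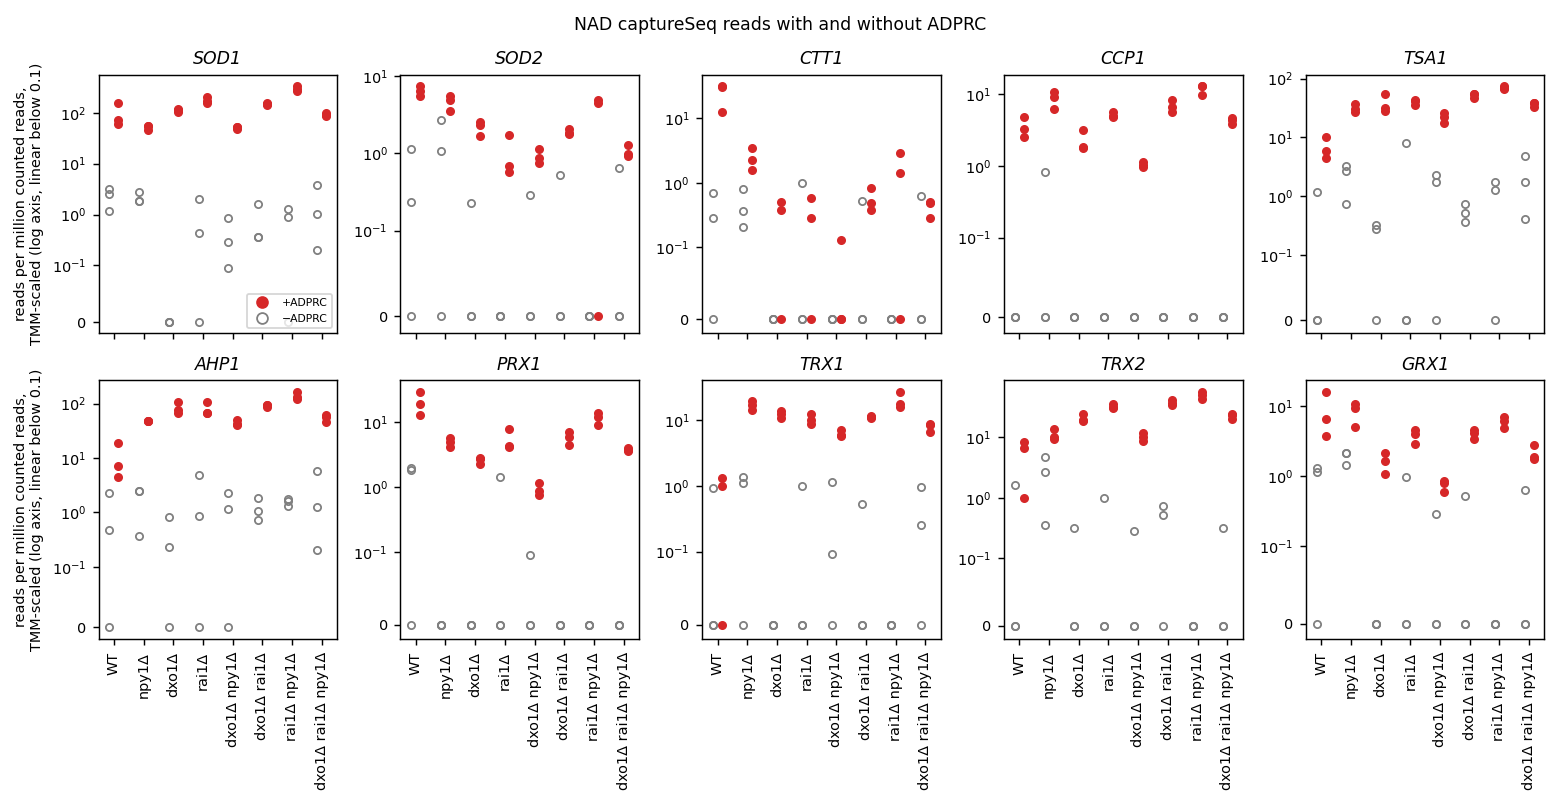
Capture reads of each gene per 1000000 counted reads after TMM scaling, in 8 strains (log axis, linear below 0.1), with filled red points for the 3 +ADPRC libraries and open grey points for the 3 −ADPRC libraries. SOD1 is apart from its controls in all strains, whereas the +ADPRC points of CTT1 reach the control points in 6 of the 8 strains.

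Of the 24 other redox genes 11 passed the base mean limit in WT and 7 of these were enriched: DOT5, TRX3, GRX2, GSH1, GPX1, HYR1 and ZWF1. In npy1Δ 14 of 23 tested were enriched, in dxo1Δ 14 of 14, in rai1Δ 12 of 17 and in dxo1Δ npy1Δ 10 of 19. In dxo1Δ rai1Δ it was 15 of 20, in rai1Δ npy1Δ 11 of 12 and in the triple mutant 12 of 21. Of all RNAs tested, 36.1% to 87.3% were enriched per strain.

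The captured level, in RPM of the mRNA reads of the +ADPRC libraries, can be set beside the transcript level on the same kind of scale. The log2 ratio of both means is a description only, since the libraries were made differently and each scale is relative. Between genes it also depends on how far each kind of library covers the window, which was not measured. In WT it was highest for CTT1 at 2.35, PRX1 at 2.02 and SOD1 at 1.32, and lowest for TRX2 at −2.08, TSA1 at −1.97 and SOD2 at −1.89. Among 6597 mRNAs of WT, SOD1 ranked 17 by captured and 49 by transcript level, CTT1 80 and 452, and PRX1 102 and 444, whereas SOD2 ranked 323 and 79 and TRX2 412 and 94. Genes with like 5′ transcript levels thus differed in captured level: in WT, PRX1 stood at 1494 ± 134 (SD, n = 3) and AHP1 at 686 ± 283, at 5′ transcript levels of 369 and 514.

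The ratios shifted between strains. That of SOD1 was −0.39 in npy1Δ and 1.32 to 1.73 in all other strains. Its mean captured level was 822 ± 93.3 (SD, n = 3) in npy1Δ, 6779 ± 1249 in WT and from 3668 ± 172 to 4496 ± 315 in the others. This scale depends on the mRNA share of the +ADPRC reads, 1.23% to 2.48% in WT and 7.73% to 11.9% in npy1Δ. Per 1000000 counted reads after TMM scaling SOD1 was 156, 70.8 and 60.2 in WT and 46.7, 54.9 and 53.8 in npy1Δ. Its difference in enrichment was not called there (log2 −1.81, edgeR adjusted p = 0.136, median of all RNAs −1.47). The ratio of PRX1 was 2.02 in WT and 0.94 to 1.35 in the mutants, and that of GRX1 0.43 in WT and −1.01 to −0.43 in the mutants. TRX1 was at −1.58 in WT, a value that rests on 12, 0 and 2 captured reads and was not enriched over the control, and at −1.03 to −0.16 in the mutants. TRX2 was at −2.08 and −2.25 in WT and npy1Δ and at −0.84 to −0.23 elsewhere, which is also the split between the capture run of WT and npy1Δ and the others. CTT1 fell from 2.35 to 1.16 in npy1Δ and to −2.78 to 0.45 elsewhere, where it rests on 5 to 30 captured reads. The 10 genes together took 1.31% of the +ADPRC mRNA reads in WT, 0.298% in npy1Δ and 0.890% to 1.04% in the other mutants.

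**Figure D5:**
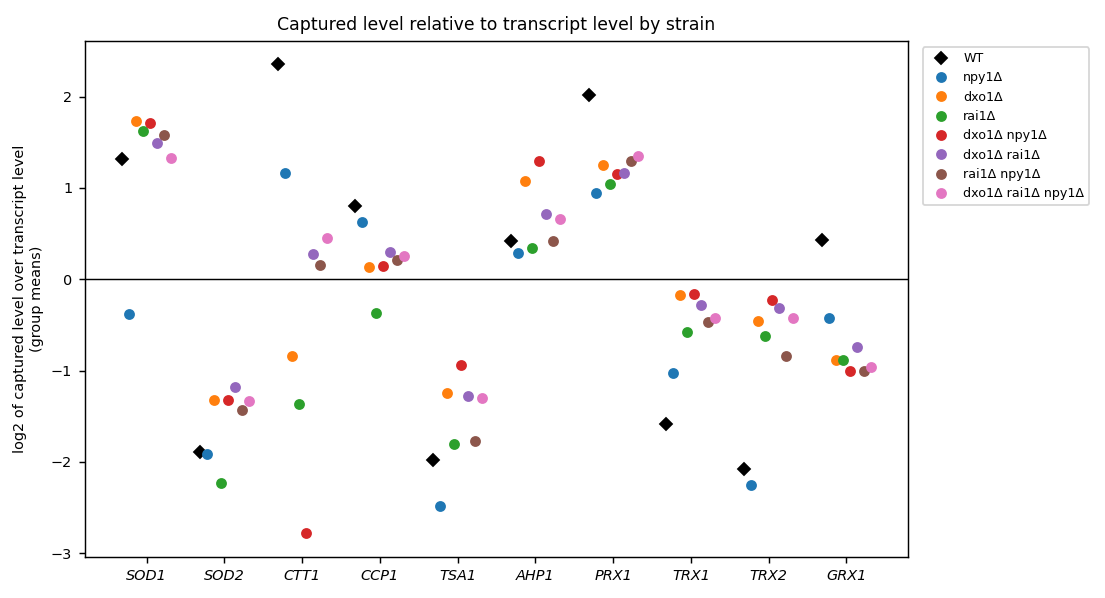
Log2 of the mean captured level over the mean transcript level for each gene, with WT as black diamonds and the 7 mutants as coloured points. On this relative scale SOD1 of npy1Δ, at −0.39, is apart from its other strains at 1.32 to 1.73, and the CTT1 points span from −2.78 to 2.35.

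The difference in capture enrichment between each mutant and WT was tested as the interaction of strain and ADPRC in edgeR. Both ADPRC arms of a strain lie within a run, but all mutants except npy1Δ were sequenced in another run than WT, so that 7 of the 8 calls compare runs as well as strains. The calls for the 10 genes were few and depended on scaling and on single WT controls. In npy1Δ 1 of the 10 was called (7.38% of all RNAs), CTT1, whose enrichment was lower than in WT by log2 −4.43 (adjusted p = 0.0321). In dxo1Δ 3 were called (8.06%), with higher enrichment of SOD1 by 6.87 (adjusted p = 5.28e-04), AHP1 by 3.84 (0.00288) and TRX1 by 8.09 (0.00718). In dxo1Δ npy1Δ 3 were called (9.07%), SOD1 at 2.83 (0.0277), AHP1 at 3.55 (0.00446) and TRX2 at 5.09 (0.00739), and in the triple mutant 1 (6.52%), TRX2 at 5.26 (0.0162). In rai1Δ 0 were called (10.4%), in dxo1Δ rai1Δ 0 (5.4%) and in rai1Δ npy1Δ 0 (11.5%), where an unadjusted edgeR p below 0.05 would give 1, 5 and 2.

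These differences are read against the median of all RNAs, which was itself −1.47 in npy1Δ, 1.79 in dxo1Δ, 0.94 in dxo1Δ npy1Δ and −0.18 in the triple mutant. Relative to it CTT1 of npy1Δ was at −2.96, and SOD1 of dxo1Δ at 5.08. Scaling by size factors (RLE) shifted the medians by 0.81 to 3.04 and moved the share of higher among all calls from between 3.81% and 32.1% to between 66.7% and 88.8%, and total counts moved it to between 38.9% and 77.8%. Under both the CTT1 call of npy1Δ ended (−2.96 and −3.12), and SOD1, AHP1 and TRX2 were called higher in rai1Δ and dxo1Δ rai1Δ too. SOD1 and TRX1 of dxo1Δ had 0 control reads and TRX2 of dxo1Δ npy1Δ and the triple mutant 1, so that the fitted size of these differences depends on the prior count. The TRX2 differences rest on 7 reads in WT −ADPRC replicate 2, without which they were 0.30 in dxo1Δ npy1Δ and 0.07 in the triple mutant, and TRX1 of dxo1Δ was 4.50 without it and not called. AHP1 of dxo1Δ npy1Δ was 1.97 without WT −ADPRC replicate 1 and not called. The CTT1, SOD1 of dxo1Δ npy1Δ and AHP1 of dxo1Δ calls each ended without any one of 6 libraries, and the SOD1 call of dxo1Δ held without each library. Without WT +ADPRC replicate 1 further genes were called: TSA1 (5.03) and TRX2 (5.31) in dxo1Δ, TRX1 in dxo1Δ npy1Δ (5.41), SOD1 (2.70), AHP1 (3.61), TRX1 (6.21) and TRX2 (3.47) in dxo1Δ rai1Δ, AHP1 (3.01) and TRX1 (7.62) in rai1Δ npy1Δ, and TRX1 in the triple mutant (5.02).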

How the data were processed

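Strains were BY4742 (WT) and 7 deletion mutants, with 3 replicates each, and 72 of the 96 libraries were used, the unfragmented capture libraries and the transcriptomes. The authors trimmed adapters, removed rRNA and tRNA reads first, mapped what was left to a BY4742 genome assembly made in Toronto, and deposited raw read counts per RNA, for mRNAs over a window at the translation start and for transcriptomes also over the coding sequence. The submitters' notes name Bowtie, SAMtools 0.1.13, HTSeq and DESeq2 1.4.5. Columns of the authors' own comparisons (fold changes and p-values) were not used, and 0 sample columns were left unmapped. Tables list 7647 RNAs for capture and 7620 for transcriptomes, and 5914 of 6598 mRNAs were matched to a RefSeq locus of assembly R64, which was used for names, neighbours and window length only.

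The quasi-likelihood test of edgeR 4.0.16 (R 4.3.3, limma 3.58.1) with TMM factors was run on all RNAs with a normalized base mean above 1, per pair of groups and without covariates, with Benjamini-Hochberg adjustment over all RNAs tested. Calls needed an adjusted p below 0.05 and, other than for the interaction, an absolute log2 fold change above 0.5. Each SE of a fold change was calculated back from the test, as the absolute log2 fold change over the square root of its F statistic. It is approximate, above all where reads are few. Levels are reads per 1000000 mRNA 5′ reads, without YLR162W, an entry beside the rDNA left out after seeing the data. The code was tested on simulated data. The members and gene lists were chosen with earlier results of these data known, and the text names the members, 7 other redox genes fixed by name, and examples from the lists. Alternatives were RLE and total count scaling, no filter, filterByExpr, DESeq2 1.42.0, coding-sequence counts, all 24 transcriptomes in one fit, a log2 limit of 2, an unadjusted p, a block on the replicate number, and leaving libraries out in turn.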

Additional observations from a re-analysis of the deposited data

Results flagged for a closer look

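Among 10 genes and 7 mutants, the capture enrichment of 8 gene and strain pairs differed from that of WT by a test of the difference itself (the interaction of strain and ADPRC, edgeR, adjusted p below 0.05). Of all RNAs tested, 5.4% to 11.5% were called per mutant. In npy1Δ it was CTT1 that was called, by log2 −4.43, and this call ended under RLE and under total count scaling. In dxo1Δ it was SOD1 by 6.87, AHP1 by 3.84 and TRX1 by 8.09. In dxo1Δ npy1Δ it was SOD1 by 2.83, AHP1 by 3.55 and TRX2 by 5.09, and in the triple mutant dxo1Δ rai1Δ npy1Δ it was TRX2 by 5.26. All share the 6 WT capture libraries, and all but that of npy1Δ were sequenced in another run than these, so that run and strain cannot be told apart. The TRX1 and TRX2 differences rest on WT −ADPRC replicate 2, which holds every WT control read of both genes (4 and 7), and the part of those reads was tested only by leaving that library out.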

How the results depend on the processing

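Of the values of single genes under the alternatives, 3935 kept their side of the limit, 163 fell short of it, 73 newly passed it and 24 changed sign with a call under at least 1 of both settings. Of the 3935, 197 changed sign between values that were not called, 144 of them with a library left out. Under total count scaling CCP1 turned to 0.43, 0.17, 1.58, 0.16, 1.33, 1.32 and 1.37 in npy1Δ, dxo1Δ, rai1Δ, dxo1Δ npy1Δ, dxo1Δ rai1Δ, rai1Δ npy1Δ and the triple mutant, and TRX2 to 0.20, 0.49, 1.07, 0.35, 0.93, 0.96 and 1.03. SOD1 turned to 0.0048, 0.53, 0.38, 0.41 and 0.54 in dxo1Δ, rai1Δ, dxo1Δ rai1Δ, rai1Δ npy1Δ and the triple mutant, GRX1 to 0.083, 0.0059 and 0.0021 in rai1Δ, dxo1Δ rai1Δ and the triple mutant, and AHP1 to 1.45 in npy1Δ. All 23 keep their sign relative to the median of all RNAs. CTT1 turned to 0.52 for RAI1 in dxo1Δ npy1Δ with coding-sequence counts.

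A log2 limit of 2 left 3 or 4 of the 10 genes called against WT and 0 for RAI1, and 1913 to 2366 of 4673 to 5166 RNAs. With filterByExpr 5 were enriched in rai1Δ, and 408 to 1821 of 1061 to 3671 RNAs in all strains. The enriched RNAs rose to 4241 and 4885 under RLE scaling in rai1Δ and dxo1Δ npy1Δ. Differences in enrichment numbered, under RLE scaling, 0 in npy1Δ, 5 in dxo1Δ, 4 in rai1Δ, 5 in dxo1Δ npy1Δ, 4 in dxo1Δ rai1Δ and 4 in the triple mutant. Under total counts they numbered 0 in npy1Δ, 3 in rai1Δ, 5 in dxo1Δ npy1Δ, 4 in dxo1Δ rai1Δ and 3 in the triple mutant. Over all RNAs RLE scaling left 24 to 213 differences of 265 to 445 in 5 mutants. The cause was not tested.

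No comparison had a correlation above 0.1 in all 3 pairs of like replicate number, and the main tests were left unpaired. For capture this check cannot exclude a pairing of both ADPRC arms, since control libraries held only 490 to 22456 mRNA reads. Between the transcriptomes of rai1Δ npy1Δ and rai1Δ the correlations were 0.058 to 0.40, and between those of dxo1Δ npy1Δ and dxo1Δ 0.083 to 0.22. With the replicate number as a block, 4 genes were enriched in rai1Δ, 0 in dxo1Δ npy1Δ (and 0 of 2958 RNAs) and 5 in the triple mutant, and 385, 1151, 618 and 568 of 1061, 2689, 2607 and 3026 RNAs in WT, npy1Δ, rai1Δ and the triple mutant. Differences numbered 0 in npy1Δ, 1 in dxo1Δ npy1Δ and 0 in the triple mutant.

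With each library left out, called genes against WT numbered 8 to 8 in npy1Δ, 9 to 9 in dxo1Δ, 8 to 9 in rai1Δ, 9 to 9 in dxo1Δ npy1Δ, 8 to 9 in dxo1Δ rai1Δ, 8 to 9 in rai1Δ npy1Δ and 9 to 9 in the triple mutant. They numbered 0 to 0 for each NPY1 and DXO1 comparison, and 3 to 5 and 5 to 7 for RAI1. Enriched genes numbered 6 to 9 in WT, 6 to 10 in npy1Δ, 9 to 10 in dxo1Δ, 6 to 9 in rai1Δ, 8 to 9 in dxo1Δ npy1Δ, 9 to 10 in dxo1Δ rai1Δ, 8 to 9 in rai1Δ npy1Δ and 8 to 10 in the triple mutant. Differences numbered 0 to 1, 1 to 5, 0 to 0, 1 to 4, 0 to 4, 0 to 2 and 0 to 2 in the same order of mutants. Control depth limits the precision of the capture results.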
